A study of Caenorhabditis elegans with 36 samples.

Results

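The clec genes of Caenorhabditis elegans encode proteins with a C-type lectin-like domain, a fold that in many animals binds sugars or other ligands. The members described here are the genes whose symbol is clec followed by a number and that had at least 10 counts in 3 or more of the 36 libraries. This rule was met by 145 of the 240 clec symbols in the count table, among 46778 gene identifiers of which 16542 met it. Of the 95 clec genes left out, 5 had no count in any library. The rule uses no fold change or p-value, but the family was chosen with earlier results of these data known.

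C-type lectin-like genes form a large, expanded family in nematodes. Many of the proteins carry a signal peptide, many of the genes are active in the intestine, where worms meet the bacteria they eat, and particular members are induced by particular pathogens. For this reason clec genes are widely used as readouts of the innate immune response, together with lysozymes, caenacins and other effectors under the PMK-1 p38 kinase pathway and other regulators.

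Whole worms of 12 groups were sequenced, 3 libraries each. PD animals (strain BY273, carrying GFP and α-synuclein under the dat-1 promoter, which is active in dopaminergic neurons) and wild type animals (strain N2) were grown with krill oil at 0.5 μl per ml from the L4 stage or without it as control, and collected as adults on day 1, day 3 or day 6. All groups ate E. coli OP50, none received FdUrd, and older adults were separated from their progeny by washing and filtering. The labels give the genotype of both strains as wildtype, BY273 is 1 transgenic strain, and a library pools many animals, so a transcript can differ because cells or animals of a kind were fewer or because each held less RNA, which cannot be told apart. The replicate numbers in the labels do not say how cultures were shared, so p-values measure the spread between these libraries.

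Libraries held 16488713 to 34605080 counts (median 24785463), of which ribosomal RNA genes took 5.31 to 24.5% and the clec members 0.217 to 0.354%. Between 127 and 145 members were detected in a library. Levels are given as CPM, counts scaled to a common library total with TMM factors over the 36 libraries. Wild type control day 1 replicate 3 stood apart for several members, with 43.9 CPM of clec-1 against 101 and 101 CPM in the other replicates of its group, 16.2 CPM of clec-7 against 5.78 and 4.78 CPM, and 27.6 CPM of clec-78 against 9.82 and 6.80 CPM. Without it the krill oil effect on day 1 in wild type animals was 0.38 on the log2 scale for clec-1 (adjusted p 0.00224, and with it 0.69, adjusted p 0.214), 0.08 for clec-7 (adjusted p 0.806, and with it -0.69, adjusted p 0.432) and 1.37 for clec-78 (adjusted p 0.0199, and with it 0.51, adjusted p 0.631), by edgeR.

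A few genes held most of the counts of the family. Per kilobase of exon, clec-87 (chromosome I, 10184462-10185520, build WBcel235) stood highest at a mean of 1028 CPM per kb over the 36 libraries, followed by clec-88 at 248, clec-63 at 246, clec-91 at 171, clec-1 at 121 and clec-50 at 98.0 CPM per kb. The next in order, clec-150, clec-41, clec-47 and clec-65, lay between 40.6 and 47.6 CPM per kb, close enough that their library ranges overlapped. clec-87 took 34.9% of all counts of the family, and the 5 members with the most counts took 66.4%. At the other end, 71 members averaged under 1 CPM, and only 31 averaged at least 10 CPM.

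Steadiness went with some of the abundant genes and not with others. Between the highest and the lowest of the 12 group means, the ratio was 1.40 for clec-87, 1.41 for clec-88 and 1.36 for clec-91, against 19.4 for clec-52, 12.4 for clec-85 and 9.20 for clec-47. Group means lay within 2-fold of each other for 16 members and over 10-fold apart, or with a group at 0, for 55. The group with the highest mean was wild type controls on day 6 for 41 members, more than any other group, and 23 of these averaged at least 1 CPM. Neither the fold ranges nor the highest groups were counted over all genes, so they are not read as particular to the family. Summed over the members, krill oil-fed PD animals had 2651 ± 21.97 CPM on day 3 and PD controls 3238 ± 100.4 CPM, and on day 6 the sums were 2857 ± 95.6 CPM with krill oil and 3393 ± 20.98 CPM without (SD, n = 3 each). Krill oil-fed wild type animals had 2398 ± 48.8 CPM on day 3 against 3106 ± 128 CPM in controls, and 2820 ± 69.7 CPM on day 6 against 3148 ± 39.9 CPM. On day 1 the order was the other way, at 2694 ± 72.1 CPM against 2579 ± 111 CPM in PD animals and 2687 ± 93.1 CPM against 2375 ± 56.2 CPM in wild type animals. In wild type animals on day 1, and in both strains on day 3 and day 6, the libraries of the diets did not overlap in this sum.

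Members were not spread evenly over the genome. Chromosome V held 49 members and chromosome IV 38, with 30 on chromosome II, 16 on chromosome I, 9 on chromosome III and 3 on chromosome X. In all, 93 members lay within 20000 bases of another member, in 28 groups of neighbours. Exons of 6 members overlap another gene on the same strand and those of 17 a gene on the other strand, among them clec-87, clec-91, clec-85 and clec-82. How the authors assigned reads to overlapping genes, strands and near-identical copies is not given in the sources used here. The values of all members with such an overlap and of close paralogs are thus uncertain to that extent.

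Whether dietary krill oil altered the family was asked in each strain at each age. A gene was called when edgeR's quasi-likelihood test gave an adjusted p under 0.05, whatever the size of the change. On day 1 krill oil mostly raised the members it altered. In PD animals 21 of 86 members tested were higher and 8 lower (15.5% of all genes tested were called, 7.44% higher and 8.07% lower), and in wild type animals 20 of 110 were higher and 2 lower (7.36% of all genes called, 4.87% higher and 2.49% lower). Thus 24.4% and 18.2% of the members tested were higher, above the share among all genes in each strain.

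On day 3 the balance moved to lower. Of 99 members tested in PD animals, 39 were lower and 19 higher with krill oil (41.2% of all genes called, 19.9% lower and 21.2% higher), and in wild type animals 29 of 112 were lower and 20 higher (36.1% of all genes called, 14.1% lower and 22% higher). The median log2 fold change of the members tested was -0.18 in PD and -0.13 in wild type animals, beside 0.00 and 0.00 for all genes. The share of members lower, 39.4% and 25.9%, was above that of all genes, while the share higher was close to or below it.

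On day 6 the strains parted. In PD animals 33 of 100 members tested were higher and 15 lower with krill oil (36.9% of all genes called, 24.8% higher and 12% lower), with a median log2 fold change of 0.32 beside 0.05 for all genes. Among wild type animals 63 of 109 members were lower and 25 higher (63.5% of all genes called, 32.6% lower and 30.9% higher), with a median of -0.52 beside -0.02. The PD day 6 count depended on a library, since 32 members were called without PD control replicate 2. The wild type day 1 count did so too, with 13 called without krill oil replicate 2, 14 without control replicate 2 and 30 without control replicate 3.

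**Figure D1:**
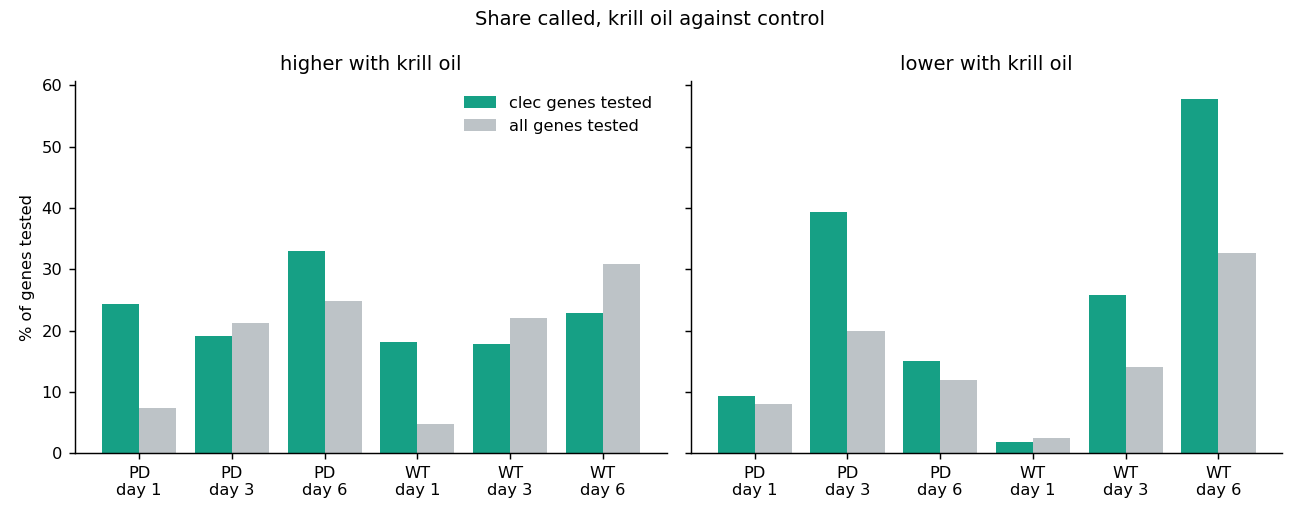
Bars give the percentage of genes tested that were called higher (left) or lower (right) with krill oil in each strain (PD, WT = wild type) and at each day, for the clec members and for all genes. The share of members lower stands above that of all genes at day 3 in both strains (39.4% in PD, 25.9% in wild type) and is highest in wild type animals at day 6 (57.8%).

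The calls are next given by level, for which no difference between classes was tested. Of the 31 members with a mean of at least 10 CPM, all of which were tested, krill oil lowered 18 and raised 6 in PD animals on day 3, and lowered 19 and raised 5 in wild type animals on day 3. On day 6 the split was 12 lower and 5 higher in PD animals and 17 lower and 11 higher in wild type animals. The 43 members with a mean of 1 to 10 CPM behaved otherwise in PD animals on day 6, where 19 of 42 tested were higher and 3 lower, while in wild type animals 28 were lower and 4 higher. Among the 71 members under 1 CPM, 9 of 27 tested were higher and none lower in PD animals on day 6 by edgeR, and in wild type animals 10 of 35 were higher and 18 lower. All genes of the same levels were split in the same way in PD animals on day 6. At 10 CPM or more 16.2% were higher and 21.3% lower. At 1 to 10 CPM 34.2% were higher and 2.62% lower, and under 1 CPM 33.2% higher and 1.43% lower. In wild type animals on day 6 lower calls outnumbered higher ones below 10 CPM over all genes too. At 1 to 10 CPM 11.99% of all genes were higher and 49.9% lower (members 9.3% and 65.1%). Under 1 CPM 16.3% of all genes were higher and 38.8% lower (members 28.6% and 51.4%). At 10 CPM or more 49.3% of all genes were higher in wild type animals on day 6, beside 35.5% of the members. The share of abundant members lower was above that of all genes of that level on day 3 and day 6, at 58.1% against 24.5% and 38.7% against 21.3% in PD animals, and 61.3% against 21.9% and 54.8% against 18.6% in wild type animals.

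How many of all genes were called alike in every krill oil comparison was not counted. Of 75 members tested in all 6, 2 were higher and 1 lower in each. The most responsive was clec-52 (chromosome IV, 8167164-8168760), a gene known in C. elegans to be induced by infection with Staphylococcus aureus. On day 1 it had 18.3, 14.7 and 23.8 CPM in krill oil-fed PD animals, against 1.32, 1.72 and 1.49 CPM in PD controls (log2 fold change 3.64, SE 0.196, adjusted p 4.52e-07 by edgeR). The wild type values on day 1 were 22.7, 30.7 and 25.5 CPM with krill oil, against 1.74, 1.37 and 1.94 CPM in controls (3.97, SE 0.173, adjusted p 4.8e-05). Every krill oil library of both strains on day 1 was thus at least several fold above every control library.

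The difference in clec-52 persisted on day 3 and day 6. In PD animals krill oil gave 13.4, 11.5 and 12.03 CPM on day 3 against 1.05, 1.91 and 1.10 CPM in controls, a log2 fold change of 3.15 (SE 0.168, adjusted p 2.43e-08). On day 6 the PD values were 25.6, 21.5 and 20.3 CPM with krill oil against 6.13, 6.41 and 7.09 CPM in controls (1.81, SE 0.117, adjusted p 2.26e-05). Krill oil-fed wild type animals had 24.6, 24.5 and 27.7 CPM on day 6 against 2.38, 3.64 and 2.87 CPM in controls (3.11, SE 0.123, adjusted p 2.09e-10). The smaller day 6 difference in PD animals goes with a higher control level, since krill oil-fed animals of both strains stood near the same level on that day. On day 3 wild type animals had 10.1, 15.4 and 12.1 CPM with krill oil against 1.06, 1.23 and 5.58 CPM in controls, where control replicate 3 stood apart. The log2 fold change there was 2.20 (SE 0.479, adjusted p 0.00635) and 3.43 without that library.

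clec-5 (chromosome III, 4881888-4883606) was the other member higher in all 6 comparisons, with smaller changes. Its clearest difference was in PD animals on day 3, at 32.6, 31.4 and 30.03 CPM with krill oil against 8.37, 9.74 and 8.63 CPM in controls (log2 fold change 1.80, SE 0.0740, adjusted p 2.34e-09). In the other 5 comparisons its log2 fold change lay between 0.43 and 1.03, and every krill oil library stood above every control library in each of the 6. Also higher in 5 of the 6 were clec-8, clec-48 and clec-143, chosen for that count after their values were seen. Of these clec-48 had 25.1, 21.8 and 24.2 CPM in krill oil-fed PD animals on day 6 against 8.97, 8.92 and 7.64 CPM in controls (1.51, SE 0.106, adjusted p 3.11e-05).

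In the other direction clec-47 (chromosome V, 15175759-15176324) was lower with krill oil in all 6 comparisons. On day 1 krill oil-fed PD animals had 9.28, 9.42 and 13.7 CPM, against 47.1, 51.9 and 58.3 CPM in PD controls (log2 fold change -2.29, SE 0.133, adjusted p 8.35e-07). Krill oil-fed wild type animals had 5.19, 4.89 and 7.64 CPM on day 1, against 32.1, 33.1 and 41.7 CPM in controls (-2.62, SE 0.186, adjusted p 0.000351). It was the only member called lower at all 3 ages in both strains. On day 3 it fell by 2.28 on the log2 scale in PD and by 2.47 in wild type animals, and on day 6 by 1.10 and 1.61.

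**Figure D2:**
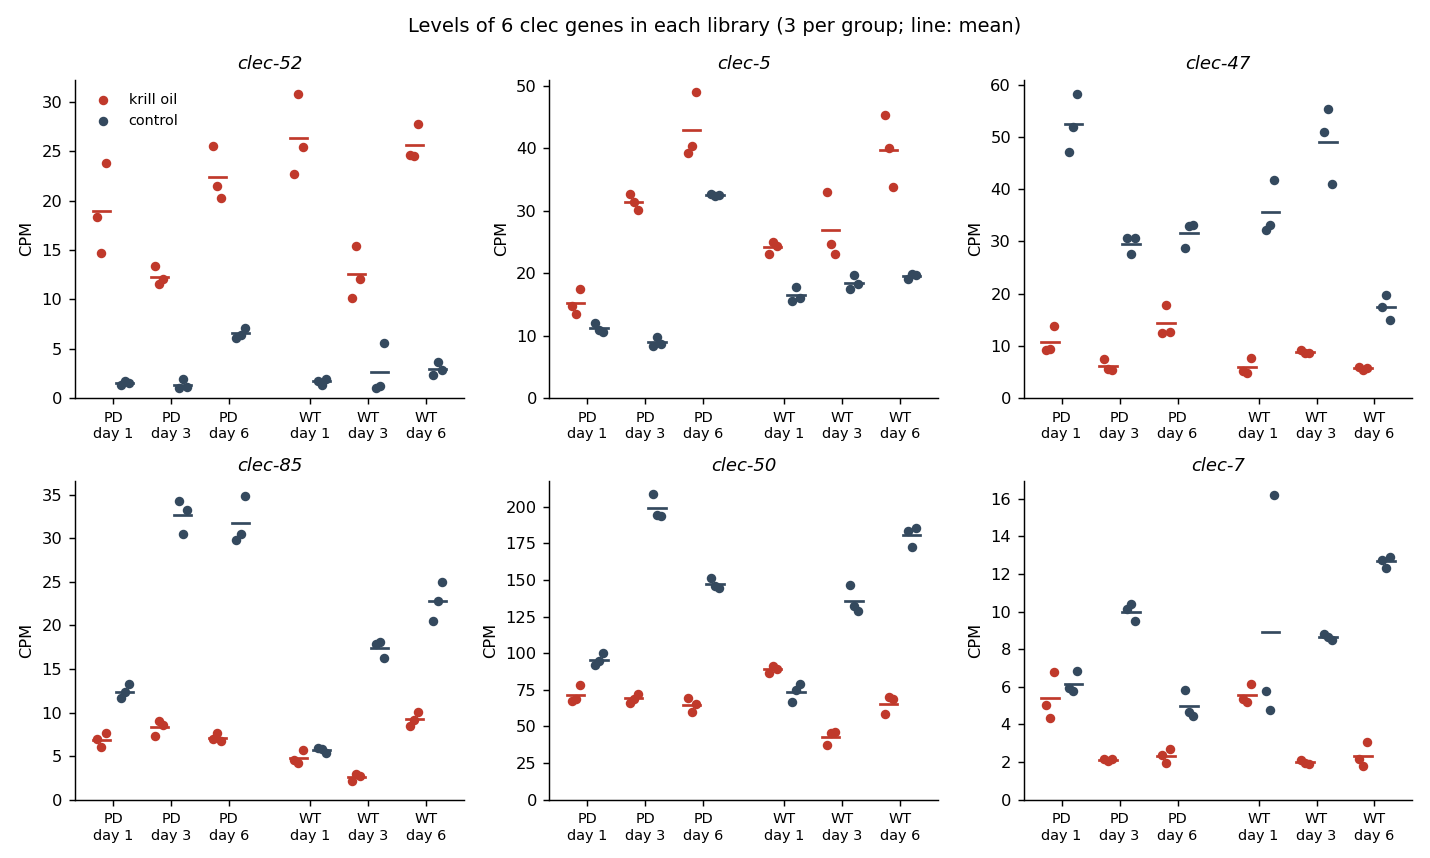
Each panel gives 1 gene in CPM (y axis, from 0) for each strain and day on the x axis, with krill oil to the left of control; points are the 3 libraries and lines the group means. clec-52 and clec-5 stand higher with krill oil throughout, clec-47 lower throughout, and clec-85, clec-50 and clec-7 lower on day 3 and day 6, with clec-7 on day 1 showing the high control library of wild type animals (16.2 CPM).

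On day 3 and day 6, 9 members were lower with krill oil in both strains: clec-7, clec-43, clec-47, clec-50, clec-62, clec-63, clec-65, clec-85 and clec-186. Of the genes tested in both strains, 25% of members and 8.89% of all genes were lower in both on day 3. On day 6 these shares were 10.4% and 1.76%. How many of all genes were so at both ages was not counted. clec-85 (chromosome IV, 2850886-2855456), known as a target of the PMK-1 pathway, had 7.31, 9.04 and 8.60 CPM in krill oil-fed PD animals on day 3, against 34.3, 30.4 and 33.3 CPM in PD controls (log2 fold change -1.98, SE 0.0809, adjusted p 2.33e-09). On day 3 in wild type animals it had 2.20, 2.98 and 2.71 CPM with krill oil against 17.9, 18.04 and 16.3 CPM in controls (-2.71, SE 0.129, adjusted p 2.11e-06). On day 6 it fell by 2.12 in PD and by 1.29 in wild type animals on the log2 scale. It was lower on day 1 as well in PD animals (-0.84, SE 0.113, adjusted p 0.000465), whereas in wild type animals the day 1 value was -0.26 (SE 0.154, adjusted p 0.394).

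clec-50 (chromosome V, 19752399-19755368) was the most abundant of those falling by more than 1 on the log2 scale at both later ages in both strains. In PD animals it had 69.7, 59.6 and 65.1 CPM on day 6 with krill oil against 151, 146 and 145 CPM in controls (log2 fold change -1.15, SE 0.0616, adjusted p 9.05e-06). Wild type animals had 58.2, 70.1 and 68.6 CPM on day 6 with krill oil against 183, 173 and 186 CPM in controls (-1.45, SE 0.0588, adjusted p 2.52e-10). On day 1 clec-50 was the only member tested in both strains that was called in opposite directions, lower in PD animals at 67.7, 69.1 and 78.2 CPM against 92.3, 94.5 and 99.96 CPM in controls, and higher in wild type animals at 86.5, 91.4 and 89.4 CPM against 66.8, 74.8 and 79.1 CPM. The log2 values were -0.42 (adjusted p 0.000545) and 0.27 (adjusted p 0.0427). Its neighbour clec-49, whose product is known to take part in the response to Serratia marcescens, did not share the later fall. It was higher on day 1, at 14.2, 13.2 and 16.5 CPM in krill oil-fed PD animals against 6.69, 6.50 and 7.20 CPM in controls (1.11, adjusted p 4.98e-05) and by 1.13 (adjusted p 0.00296) in wild type animals, and its day 3 value was -0.19 in each strain with adjusted p of 0.25 in PD and 0.29 in wild type animals.

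clec-7 and clec-43 were lower with krill oil on day 3 and day 6 and not called on day 1. clec-7 (chromosome V, 7328392-7330002) had 2.16, 2.08 and 2.16 CPM in krill oil-fed PD animals on day 3 against 10.1, 10.4 and 9.50 CPM in controls (log2 fold change -2.24, SE 0.102, adjusted p 6.59e-09). On day 6 wild type animals had 2.18, 1.80 and 3.05 CPM with krill oil against 12.8, 12.3 and 12.9 CPM in controls (-2.42, SE 0.142, adjusted p 9.58e-09). The day 3 and day 6 libraries of the diets did not overlap for clec-7 in either strain. clec-43 (chromosome II, 944066-946157) fell by 1.21 and 1.25 on the log2 scale in PD animals on day 3 and day 6, and by 1.78 and 1.79 in wild type animals.

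Among the genes named by rule for day 1, clec-71 and clec-67 rose beside clec-52. clec-71 (chromosome IV, 3937458-3939979), like clec-52 known to be induced by Staphylococcus aureus, had 3.90, 2.46 and 2.84 CPM in krill oil-fed PD animals against 0.195, 0.191 and 0.548 CPM in controls (log2 fold change 3.30, SE 0.350, adjusted p 9.83e-05, and 3.97 without PD control replicate 3). Wild type animals had 1.95, 2.30 and 2.93 CPM with krill oil against 0.229, 0.155 and 0.415 CPM (3.13, SE 0.359, adjusted p 0.00283). clec-67 (chromosome IV, 3922165-3925039), another known target of the PMK-1 pathway, had 7.31, 6.81 and 8.23 CPM with krill oil in PD animals against 2.26, 2.37 and 3.01 CPM in controls (1.55, adjusted p 3.96e-05), and 8.69, 9.53 and 7.00 CPM in wild type animals against 1.10, 1.12 and 1.04 CPM (2.95, adjusted p 0.000125). Krill oil-fed animals of both strains thus reached a like level of clec-67, from controls that differed. clec-210 (chromosome V, 3118377-3120323) was higher in PD animals on day 1, at 2.80, 1.83 and 2.25 CPM against 0.350, 0.497 and 0.117 CPM (2.82, adjusted p 0.000321), with 1.29 (adjusted p 0.11) in wild type animals. clec-184 was lower in PD animals, at 0.613, 0.785 and 0.533 CPM against 1.56, 1.72 and 1.17 CPM (-1.19, adjusted p 0.0104, and 0.0501 without PD control replicate 2). clec-196 in wild type animals had 11.1, 17.3 and 11.6 CPM with krill oil against 6.10, 4.59 and 4.67 CPM in controls (1.39, SE 0.205, adjusted p 0.00754).

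Several genes that krill oil raised on day 1 were lower or higher on day 6 depending on the strain. Krill oil raised 11 members on day 1 and lowered them on day 6 in wild type animals, namely clec-50, clec-60, clec-63, clec-65, clec-66, clec-67, clec-71, clec-80, clec-84, clec-196 and clec-266. In PD animals 2 members did so, clec-173 and clec-266. On day 6 as a whole 57.8% of the members tested were lower in wild type animals (32.6% of all genes) and 15% in PD animals (12% of all genes). The turn was not counted over all genes, so these numbers do not set the members that rose on day 1 apart from the rest. clec-71 showed the turn plainly, at 2.06, 2.89 and 3.68 CPM in krill oil-fed wild type animals on day 6 against 6.28, 7.96 and 7.45 CPM in controls (log2 fold change -1.32, SE 0.167, adjusted p 1.6e-05). In PD animals on day 6 it had 3.27, 4.39 and 3.05 CPM against 2.08, 1.99 and 2.15 CPM (0.83, SE 0.191, adjusted p 0.00883). The krill oil values of the strains overlapped on day 6, while the control values did not. The day 6 minus day 1 difference of its krill oil effect was -4.45 (SE 0.439, adjusted p 1.49e-06) in wild type and -2.50 (SE 0.380, adjusted p 6.36e-05) in PD animals, each from an interaction term, and -3.18 in PD animals without PD control day 1 replicate 3.

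clec-60 (chromosome II, 10480043-10481874) is a further gene known for induction by Staphylococcus aureus. Wild type animals on day 1 had 22, 47 and 13 counts with krill oil, against 0, 0 and 2 counts in controls (called higher, adjusted p 0.00612). On day 6 krill oil-fed wild type animals had 1.26, 1.50 and 1.64 CPM, against 4.23, 6.10 and 4.66 CPM in controls (log2 fold change -1.76, SE 0.177, adjusted p 1.9e-06). In PD animals on day 6 the direction was opposite, at 3.93, 3.26 and 3.65 CPM with krill oil against 1.13, 0.978 and 1.37 CPM in controls (1.67, SE 0.186, adjusted p 0.00017). Its neighbour clec-61 was tested on day 6 in wild type animals, at 0.420, 0.338 and 0.186 CPM with krill oil against 1.31, 1.60 and 1.52 CPM (-2.21, SE 0.280, adjusted p 1.56e-05).

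**Figure D3:**
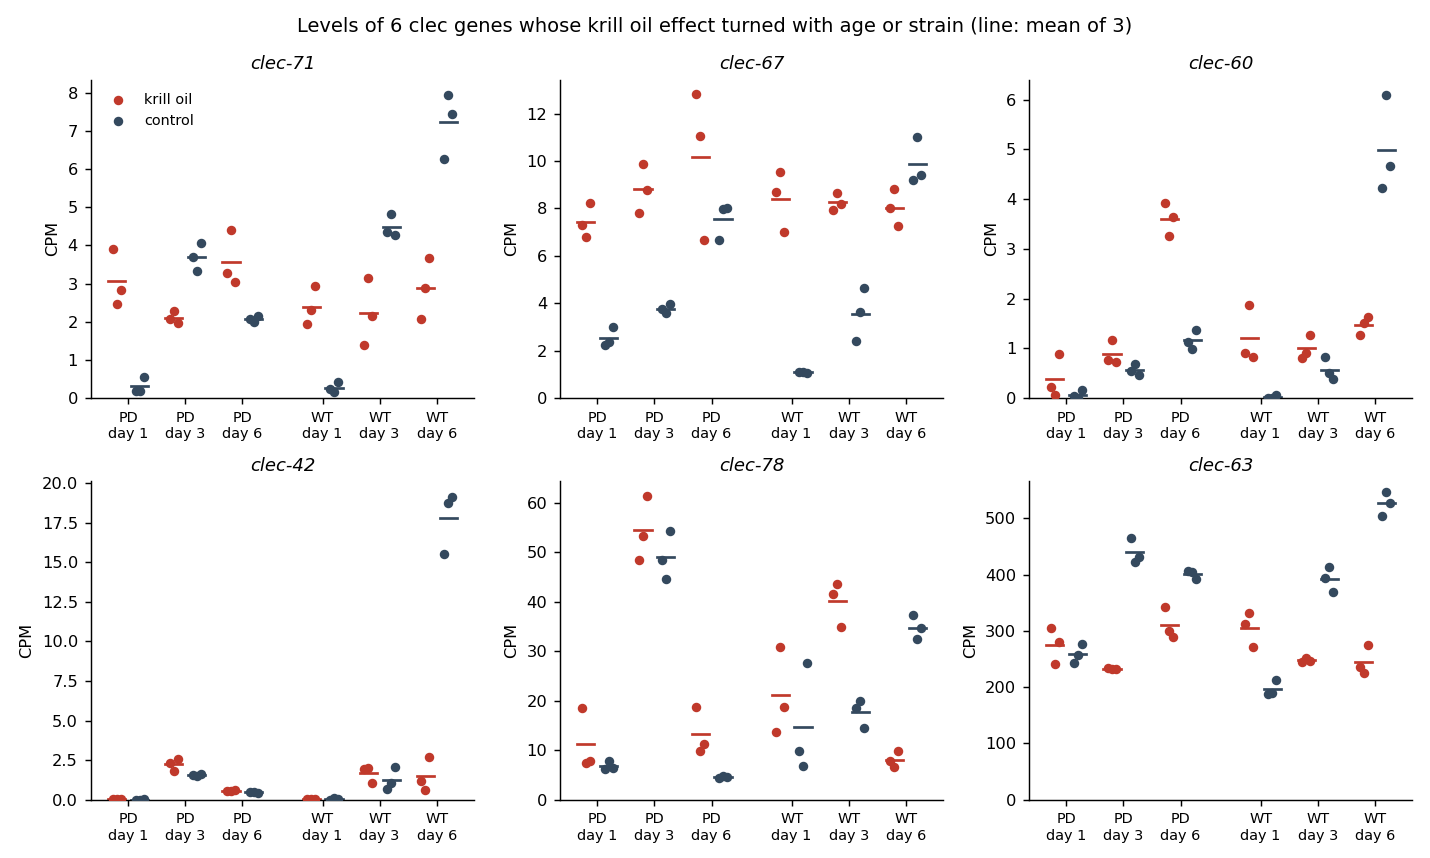
Each panel gives 1 gene in CPM (y axis, from 0) for each strain and day, krill oil left of control, with 3 libraries as points and the group mean as a line. On day 6 the wild type controls stand highest for clec-71, clec-60, clec-42 and clec-63, and the PD controls stand low for clec-71, clec-60, clec-42 and clec-78, so krill oil lies below control in wild type and above it in PD animals for clec-71, clec-60 and clec-78.

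Beside clec-7, the named falls on day 6 in wild type animals were those of clec-42, clec-17 and clec-82. clec-42 (chromosome V, 18191412-18194168), whose product has shown antimicrobial activity in vitro, had 1.18, 0.638 and 2.71 CPM with krill oil against 15.5, 18.7 and 19.2 CPM in controls (log2 fold change -3.54, SE 0.257, adjusted p 7.89e-08, and -4.28 without krill oil replicate 3). clec-17 (chromosome I, 12430028-12431500) had 0.650, 0.825 and 1.30 CPM against 5.33, 6.77 and 5.83 CPM (-2.68, SE 0.197, adjusted p 9.19e-08). clec-82 had 0.573, 1.09 and 1.12 CPM against 5.17, 5.09 and 4.71 CPM (-2.41, SE 0.189, adjusted p 1.64e-07). In PD animals on day 6 clec-42 was low on either diet, at 0.532, 0.569 and 0.596 CPM with krill oil and 0.474, 0.508 and 0.412 CPM in controls (0.31, SE 0.283, adjusted p 0.445).

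clec-41, a relative of clec-42 with known antimicrobial activity in vitro, is far more abundant and took its own course. In PD animals it had 112, 93.1 and 124 CPM on day 6 with krill oil against 219, 218 and 204 CPM in controls (log2 fold change -0.93, SE 0.0912, adjusted p 9.36e-05). Wild type animals had 191, 200.4 and 174 CPM with krill oil against 172, 164 and 180.1 CPM, ranges that overlap although the gene was called higher (0.14, SE 0.0518, adjusted p 0.0267). Here it was in PD animals that krill oil lowered the gene on day 6, unlike for clec-42.

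Rises on day 6 in wild type animals included clec-1 (chromosome V, 5700154-5701080), an abundant member, at 106, 98.9 and 92.0 CPM with krill oil against 43.3, 39.7 and 35.7 CPM in controls (log2 fold change 1.33, SE 0.0672, adjusted p 2.26e-09). Its PD day 6 value was 0.06 (adjusted p 0.542), with both diets near the level of krill oil-fed wild type animals. clec-145 rose in wild type animals on day 6 by 1.22 (SE 0.135, adjusted p 4.75e-06). The steady members changed little, with clec-87 at 1044, 970.1 and 1029 CPM in krill oil-fed wild type animals on day 6 against 853, 857 and 837 CPM in controls (0.27, SE 0.0472, adjusted p 0.000281), and at 921, 1134 and 1039 CPM against 1159, 1199 and 1197 CPM in PD animals (-0.17, SE 0.0871, adjusted p 0.16).

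In PD animals on day 6 the named rises were those of clec-123, clec-180, clec-230 and clec-73. clec-180 (chromosome IV, 7568893-7573766) had 21.3, 11.5 and 5.47 CPM with krill oil against 1.49, 0.821 and 1.14 CPM in controls (log2 fold change 3.48, SE 0.469, adjusted p 0.00048, and 2.88 without krill oil replicate 1). The 3 krill oil libraries differed among themselves by more than the controls did, yet each lay above every control. clec-180 had also risen on day 3 in both strains, at 15.05, 16.6 and 15.8 CPM against 5.37, 5.73 and 5.76 CPM in PD animals (1.49, adjusted p 3.3e-08) and 9.13, 16.05 and 14.4 CPM against 1.41, 2.79 and 3.21 CPM in wild type animals (2.40, adjusted p 0.00018). In wild type animals on day 6 the diets did not separate, at 14.5, 12.8 and 13.4 CPM with krill oil and 12.7, 13.7 and 11.1 CPM in controls (0.13, adjusted p 0.268).

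clec-230 (chromosome V, 15347847-15349144) and clec-78 (chromosome IV, 3989102-4014235) were alike in turning with the strain. clec-230 had 2.54, 1.74 and 1.34 CPM in krill oil-fed PD animals on day 6 against 0.292, 0.156 and 0.183 CPM in controls (log2 fold change 3.13, SE 0.363, adjusted p 0.000211), and 1.57, 1.76 and 2.08 CPM in krill oil-fed wild type animals against 3.57, 4.09 and 3.95 CPM (-1.09, SE 0.151, adjusted p 3.53e-05). clec-78 had 18.8, 9.83 and 11.2 CPM in krill oil-fed PD animals on day 6 against 4.30, 4.77 and 4.67 CPM in controls (1.56, adjusted p 0.000601), and 7.87, 6.56 and 9.85 CPM in krill oil-fed wild type animals against 37.2, 32.5 and 34.6 CPM (-2.09, adjusted p 3.74e-09). For both genes the libraries of the diets did not overlap in either strain on day 6, and the direction was opposite.

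Marker lists of several tissues and stages also differed between the diets on day 6. Calls in them stand beside those over all genes, of which 24.8% were higher and 12% lower in PD animals on day 6. In wild type animals on day 6, 30.9% of all genes were higher and 32.6% lower. The 7 hypodermis markers (none at 0 in any group) summed to 98.7 to 250 CPM in krill oil-fed PD animals on day 6 against 18.2 to 26.0 CPM in controls, with 7 of 7 higher, and to 166 to 171 CPM against 104 to 109 CPM in wild type animals, with 4 higher and 3 lower. The 10 larval molt markers (none at 0) summed to 209 to 535 CPM against 71.6 to 85.7 CPM in PD animals, with 10 higher, and to 331 to 353 CPM against 436 to 444 CPM in wild type animals, with 3 higher and 6 lower. The 5 pharynx markers (none at 0) summed to 166 to 277 CPM in krill oil-fed PD animals against 77.2 to 87.1 CPM in controls, with 4 higher, and to 209 to 247 CPM against 452 to 489 CPM in wild type animals, with 5 lower. Larval molt and pharynx sums took the direction of clec-230 and clec-78 in each strain, as did the neuron and intestine sums given below. The hypodermis sum, and the muscle sum given below, did so in PD animals and the opposite in wild type animals. The 10 neuron markers (none at 0) summed to 335 to 400 CPM against 326 to 335 CPM in PD animals, with 8 higher, and to 349 to 386 CPM against 518 to 544 CPM in wild type animals, with 9 lower. The 8 muscle markers (none at 0) summed to 3667 to 5146 CPM against 1834 to 1951 CPM in PD animals, with 8 higher, and to 3949 to 4251 CPM against 3218 to 3391 CPM in wild type animals, with 5 higher and 1 lower. The part of these markers in the clec results was not tested. The 11 oocyte and eggshell markers (none at 0) went the other way, 5 lower in PD and 9 higher in wild type animals. The 10 intestine markers (none at 0) stood at 1838 to 2389 CPM in krill oil-fed PD animals on day 6 against 1205 to 1258 CPM in controls, 7 of them higher and 2 lower. The wild type sums were 1964 to 2193 CPM against 2469 to 2607 CPM, 2 higher and 8 lower. The direction of the intestine list on day 6 was thus that of most clec members called in each strain, and its part in them was not tested. On day 3 the intestine list had 2 higher and 5 lower in PD animals (21.2% and 19.9% of all genes). It had 2 higher and 3 lower in wild type animals on day 3 (22% and 14.1% of all genes). On day 1 it had 2 higher and 1 lower in PD animals (7.44% and 8.07% of all genes) and 3 higher in wild type animals (4.87% of all genes).

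A further set of scarce members rose with krill oil on day 6 in both strains. clec-73 had 3.60, 1.80 and 1.56 CPM in krill oil-fed PD animals on day 6 against 0.583, 0.117 and 0.366 CPM in controls (log2 fold change 2.69, adjusted p 0.00212, and 3.30 without control replicate 1), and 2.14, 2.48 and 1.75 CPM in wild type animals against 0.123, 0.186 and 0.0449 CPM (4.07, SE 0.341, adjusted p 3.06e-07). clec-123 had 67, 53 and 43 counts with krill oil in PD animals on day 6 against 2, 3 and 0 counts in controls (4.83, adjusted p 0.000118, and 5.46 without control replicate 2). clec-79 had 1.07, 1.16 and 0.855 CPM in krill oil-fed wild type animals on day 6 against 0.164, 0.0744 and 0 CPM in controls (3.59, adjusted p 1.9e-05), and it was higher in PD animals too (3.81, adjusted p 0.000865). These 3 were named by rule, and clec-119, clec-151 and clec-229, chosen after their values were seen, were also higher on day 6 in both strains. clec-229 had 38, 29 and 20 counts in krill oil-fed PD animals on day 6 and 0 in each control library, which is at least 26.7-fold higher against a floor of 3 counts over the control group.

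On the same day the 41 sperm genes, mostly major sperm proteins, summed to 86.03 to 165 CPM in krill oil-fed PD animals against 7.78 to 18.8 CPM in controls, with 34 of 34 tested higher. The wild type sums were 85.5 to 105 CPM against 6.50 to 11.04 CPM, with 33 of 35 higher. Over all genes tested on day 6, 24.8% were higher in PD and 30.9% in wild type animals. msp-32 and msp-58 were at 0 in both PD groups, as were msp-63 and ssp-9 in PD controls, and 7 of the genes were at 0 in wild type controls. On day 3 26 of 34 sperm genes were higher in wild type animals (22% of all genes). None of 25 was higher in PD animals (21.2% of all genes), where 1 was lower by edgeR (19.9% of all genes). clec-73 and clec-79 likewise were higher on day 3 in wild type animals, by 1.98 (adjusted p 0.00448) and 2.41 (adjusted p 0.000645). The part of sperm transcripts in these clec values was not tested.

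**Figure D4:**
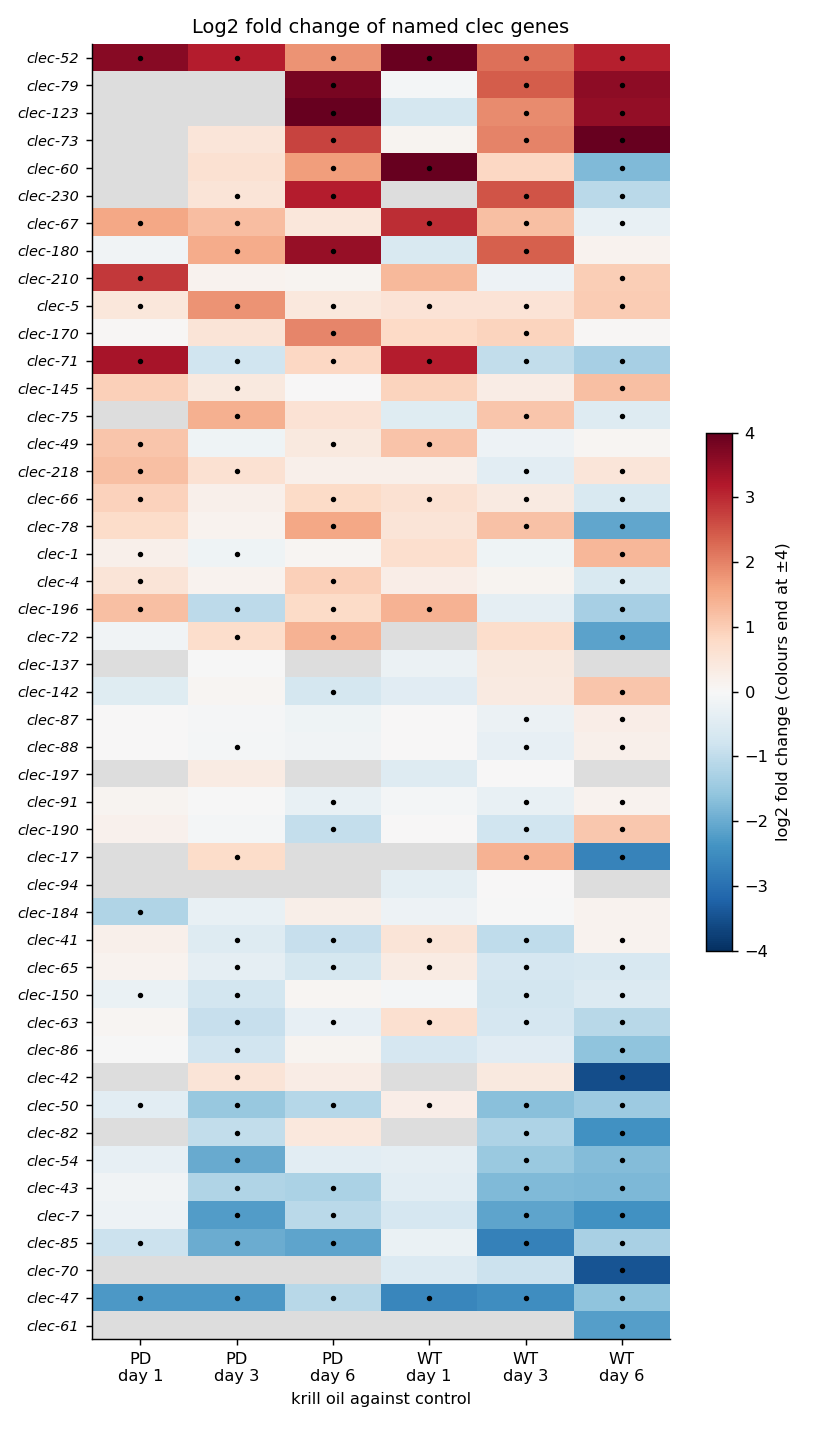
Rows are 47 clec genes named by rule and columns the krill oil comparisons by strain and day; colour gives the log2 fold change of krill oil over control (colours end at ±4), a dot marks an adjusted p under 0.05, and grey marks a gene not tested. clec-52 and clec-5 are higher in every column and clec-47 lower in every column, while the PD and wild type day 6 columns differ in sign for clec-230, clec-78, clec-60 and clec-71.

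Whether the strain changed the response was tested with an interaction term at each age. On day 1, 1 member was called with a larger and 2 with a smaller value in PD animals, of 117 tested (0.0897% of all genes were called, 0.0345% larger and 0.0552% smaller), and 12 had an unadjusted p under 0.05. The named one, clec-67, differed by -1.41 on the log2 scale (SE 0.226, adjusted p 0.0438), a call that was lost on leaving out any library but wild type krill oil replicate 3, with adjusted p between 0.0568 and 0.130. On day 3, 14 of 120 members differed, 8 upwards and 6 downwards (9.6% of all genes called, 3.4% upwards and 6.2% downwards). clec-5 differed by 1.26 (SE 0.159, adjusted p 0.000499), with the larger rise in PD animals. clec-218 differed by 1.03 (SE 0.0973, adjusted p 4.65e-05), at 21.4, 23.4 and 22.6 CPM with krill oil against 14.7, 15.9 and 13.5 CPM in PD animals, and 17.3, 18.1 and 16.8 CPM against 24.0, 22.6 and 24.2 CPM in wild type animals.

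On day 6, 74 of 117 members differed between the strains in their response, 60 with a higher value in PD animals and 14 with a lower one (59.6% of all genes called, 34.5% higher and 25.1% lower). The median difference over the members tested was 0.81, beside 0.22 for all genes. With RLE factors the split was 53 higher and 17 lower and the median of all genes 0.09. The largest positive named differences were those of clec-230 at 4.20 (SE 0.372, adjusted p 1.27e-06), clec-42 at 3.83 (SE 0.594, adjusted p 0.000106, and 4.56 without wild type krill oil replicate 3) and clec-78 at 3.63 (SE 0.274, adjusted p 4.19e-07). The largest negative ones were clec-190 at -2.04 (SE 0.119, adjusted p 7.32e-08), clec-142 at -1.83 (SE 0.289, adjusted p 0.000122) and clec-52 at -1.32 (SE 0.182, adjusted p 4.26e-05). For clec-190 krill oil-fed PD animals had 17.4, 17.3 and 19.1 CPM against 35.4, 34.2 and 37.4 CPM in controls, and krill oil-fed wild type animals had 24.4, 23.4 and 22.3 CPM against 12.3, 10.2 and 11.1 CPM. The diets did not overlap in either strain, and the direction was opposite.

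Calls made in each strain can be set side by side for the members tested in both. On day 1, 13 members were higher in both strains, of 20 in PD (65%) and 17 in wild type animals (76.5%). Over all genes tested in both, these shares were 48.3% in PD and 71.8% in wild type animals. On day 3, 23 members were lower in both, of 38 in PD (60.5%) and 29 in wild type animals (79.3%). Over all genes these shares were 43.8% in PD and 61.3% in wild type animals. A further 12 members were higher in both on day 3, 13.04% of those tested in both, beside 13.3% of all genes. On day 6, 11 members were higher in both, of 31 in PD (35.5%) and 23 in wild type animals (47.8%). On that day 10 members were lower in both, and 17 were called in opposite directions. Over all genes tested in both strains on day 6, 16.2% were called in opposite directions, close to the 17.7% of the members, 7.96% were higher in both (11.5% of the members) and 1.76% lower in both (10.4% of the members). Across genes, Pearson's r of the log2 fold changes in the strains was 0.881 over 80 members on day 1, 0.814 over 92 on day 3 and 0.490 over 96 on day 6, beside 0.756, 0.760 and 0.454 for all genes at the same ages. The r was thus lowest on day 6 over all genes too. The members are not independent replicates, since all values of a strain come from the same 6 libraries at each age.

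**Figure D5:**
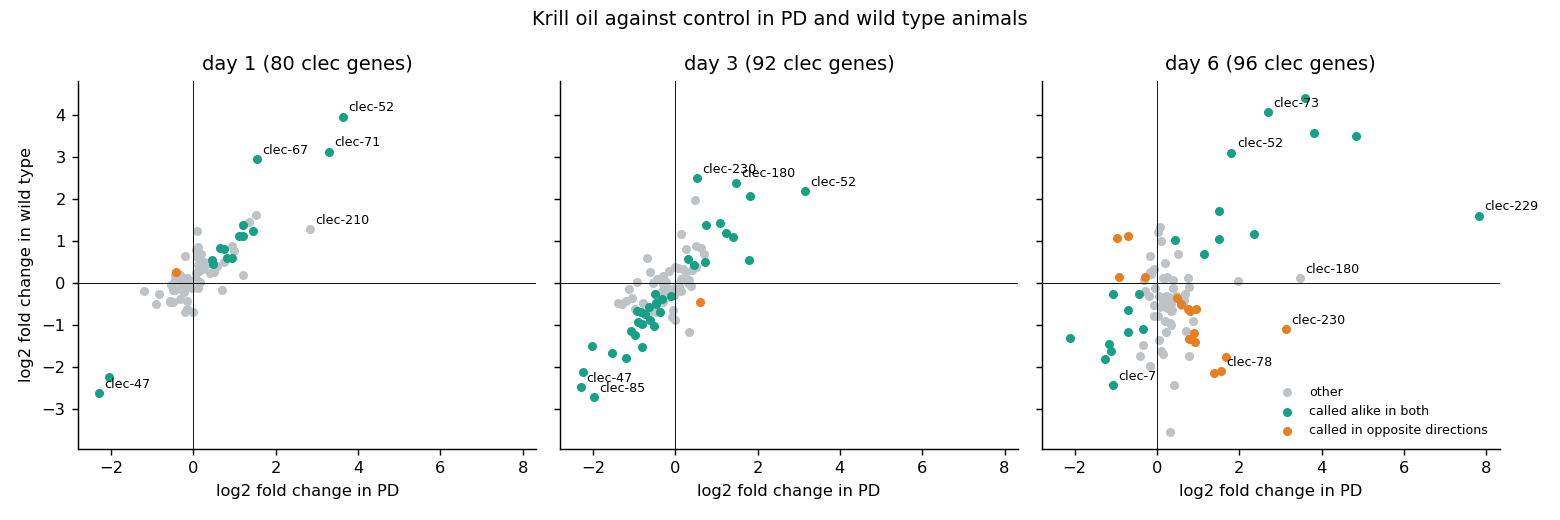
Each point is a clec member tested in both strains, with its log2 fold change of krill oil over control in PD animals on the x axis and in wild type animals on the y axis, with a panel for each day. Points follow the diagonal on day 1 (r = 0.881 over 80 members) and day 3, and on day 6 many lie right of and below the centre (r = 0.490 over 96 members).

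Neighbouring members moved alike in some groups and not in others. Over the 28 groups and 6 krill oil comparisons, 51 times a group had 2 or more members called, 32 times in 1 direction and 19 times in both. Members that are not neighbours were not counted in this way, so this does not show that neighbours agreed more often. Of all members tested, 57.8% were lower in wild type animals on day 6 (32.6% of all genes). In PD animals 39.4% were lower on day 3 (19.9% of all genes) and 33% higher on day 6 (24.8% of all genes). The groups described here were chosen after their values were seen, and none was tested as a unit. The 11 members at chromosome V, 16839121-16869840 (clec-40 to clec-33) had 9 tested in wild type animals on day 6, and krill oil lowered all 9. On day 6 in PD animals 1 of 5 tested was called, clec-26, and it was higher. These are different sets of genes, since clec-27, clec-35 and clec-40 had enough counts for the test only in wild type animals on day 6. Scarce genes pass the count filter where a diet group is high enough, so their lower calls are no separate support. clec-26, chosen after its values were seen, had 0.879, 1.20 and 1.00 CPM with krill oil in wild type animals against 2.91, 2.79 and 2.51 CPM in controls, and 1.64, 1.07 and 1.41 CPM in PD animals against 0.620, 0.821 and 0.778 CPM. On day 3, 4 of 4 tested in this block were lower in PD animals and none of 4 was called in wild type animals, which does not show that the strains differed there.

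The block at chromosome II, 12893062-12906644 holds clec-62 to clec-66. Krill oil lowered clec-62, clec-63 and clec-65 on day 3 and day 6 in both strains. clec-63, the most abundant of them, had 234, 232 and 233 CPM in krill oil-fed PD animals on day 3 against 465, 422 and 432 CPM in controls (log2 fold change -0.92, SE 0.0336, adjusted p 9.72e-10), and 235.2, 225 and 274 CPM in krill oil-fed wild type animals on day 6 against 505, 547 and 527 CPM (-1.10, SE 0.0621, adjusted p 6.7e-09). On day 1 it was higher with krill oil in wild type animals, at 312, 331 and 272 CPM against 187, 190.0 and 213 CPM (0.63, adjusted p 0.00424). clec-66, at the end of the block, stood apart from its neighbours and was higher with krill oil on day 1 in both strains, on day 3 in wild type animals and on day 6 in PD animals, and lower on day 6 in wild type animals.

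The block at chromosome IV, 2823746-2855456 (clec-80 and clec-82 to clec-85) had 5 of 5 members lower in wild type animals on day 6, and 4 of 5 lower in PD animals on day 3. The block at chromosome V, 14469231-14482317 (clec-57, clec-227, clec-56, clec-54 and clec-55) had 4 of 5 lower in PD animals on day 3 and in wild type animals on day 6. The largest block on chromosome IV, 3922165-4014235, runs from clec-67 to clec-78 and was mixed, since it holds clec-71 as well as clec-73 and clec-79. On day 6, 6 of 9 tested were higher and none lower in PD animals by edgeR, and 2 were higher and 7 lower in wild type animals. Block members share sequence, and reads from close copies may have been split among them.

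Ageing in control animals set the background for these comparisons. Most members called on day 3 against day 1 were higher, with 51 of 122 higher and 12 lower on day 3 in PD controls (47.7% of all genes called, 26.2% higher and 21.5% lower) and 43 of 137 higher and 10 lower in wild type controls (23.8% of all genes called, 11.4% higher and 12.3% lower). The wild type count of lower members was 2 without control day 1 replicate 2 or without control day 3 replicate 2. clec-71 had 3.70, 3.32 and 4.07 CPM on day 3 in PD controls against 0.195, 0.191 and 0.548 CPM on day 1 (log2 fold change 3.55, SE 0.287, adjusted p 1.1e-08, and 4.21 without day 1 replicate 3), and 4.36, 4.83 and 4.27 CPM against 0.229, 0.155 and 0.415 CPM in wild type controls (4.05, SE 0.339, adjusted p 1.89e-07). clec-42, clec-60 and clec-230 were near 0 on day 1, at 0, 4 and 1 counts of clec-42 and 0, 0 and 2 counts of clec-60 in wild type controls and 0, 1 and 1 counts of clec-230 in PD controls, and each was called higher on day 3. The fitted values of these genes depend on the prior count, so none is given.

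On day 6 against day 3 lower members outnumbered higher ones in PD controls and not in wild type controls, a difference that was not tested. In PD controls 48 of 122 members were lower and 18 higher on day 6 (61.7% of all genes called, 33.3% lower and 28.4% higher), and in wild type controls 57 of 137 were higher and 39 lower (65.3% of all genes called, 36.8% higher and 28.5% lower). In wild type controls the shares of members, 41.6% higher and 28.5% lower, were near those of all genes, and in PD controls 39.3% were lower. clec-42 had 15.5, 18.7 and 19.2 CPM in wild type controls on day 6 against 0.667, 1.05 and 2.07 CPM on day 3 (log2 fold change 3.77, SE 0.374, adjusted p 4.81e-07, and 4.35 without day 3 replicate 3). clec-17 rose by 3.36 and clec-60 by 3.16 in the same comparison. In PD controls clec-78 had 4.30, 4.77 and 4.67 CPM on day 6 against 48.3, 44.7 and 54.2 CPM on day 3 (-3.40, SE 0.274, adjusted p 1.35e-08), clec-230 fell by 2.90 and clec-196 by 2.57 on the log2 scale. Rises in PD controls were led by clec-52, at 6.13, 6.41 and 7.09 CPM on day 6 against 1.05, 1.91 and 1.10 CPM on day 3 (2.27, SE 0.210, adjusted p 6.61e-08), and clec-5, at 32.6, 32.3 and 32.5 CPM against 8.37, 9.74 and 8.63 CPM (1.89, SE 0.0985, adjusted p 6.08e-11). clec-60 rose by 1.04 (adjusted p 0.0355), a call lost on leaving out any of 4 libraries, with adjusted p of up to 0.0983. So clec-52 and clec-5, the 2 members that krill oil raised throughout, were also higher on day 6 than on day 3 in PD controls. The PD control libraries of these days also enter the krill oil comparisons, so this likeness is no separate evidence. On day 3 against day 1 in PD controls clec-5 was lower (log2 fold change -0.32, SE 0.103, adjusted p 0.0158) and clec-52 differed by -0.13 (SE 0.254, adjusted p 0.693).

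PD and wild type controls differed accordingly. On day 1, 12 of 117 members were higher and 20 lower in PD controls (10.9% of all genes called, 5.88% higher and 5.01% lower), on day 3, 30 of 120 were higher and 26 lower (37.7% of all genes called, 21.5% higher and 16.3% lower), and on day 6, 18 of 117 were higher and 69 lower (73.7% of all genes called, 30.2% higher and 43.5% lower). By DESeq2 the day 6 split was 25 higher and 52 lower, and the median of all genes was -0.25 with TMM and -0.10 with RLE factors, beside -0.71 for the members. On day 6 clec-42 had 0.474, 0.508 and 0.412 CPM in PD controls against 15.5, 18.7 and 19.2 CPM in wild type controls (log2 fold change -5.24, SE 0.333, adjusted p 1.1e-08), clec-17 had 0.182, 0.117 and 0.320 CPM against 5.33, 6.77 and 5.83 CPM (-4.87, SE 0.291, adjusted p 7.17e-09), and clec-230 differed by -4.15 (SE 0.287, adjusted p 2.33e-08). Higher in PD controls were clec-190 by 1.67, clec-1 by 1.46 and clec-52 by 1.13. The intestine markers summed to 1205 to 1258 CPM in PD controls and 2469 to 2607 CPM in wild type controls on day 6, 3 higher and 7 lower in PD, and their part in these differences was not tested. These comparisons share the control libraries of the krill oil comparisons, so agreement in direction between them is no separate evidence.

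On day 1 clec-67 (log2 fold change 1.22, SE 0.176, adjusted p 0.00125), clec-85 (1.11, SE 0.125, adjusted p 0.000243) and clec-190 (1.01, SE 0.193, adjusted p 0.00627) were higher in PD than in wild type controls, and on day 3 clec-145 (1.64), clec-230 (1.60) and clec-78 (1.47) were. Lower in PD controls were scarce genes that varied from library to library. clec-94, clec-137 and clec-197 together had 66, 18 and 7 counts in PD controls on day 3 against 144, 207 and 174 counts in wild type controls, and 51, 3 and 1 counts against 0, 4 and 2 counts on day 6. Krill oil-fed PD animals on day 6 had 62, 0 and 20 counts of these 3 genes. With 7 more scarce members chosen after their values were seen, the sums were 129, 0 and 32 counts in krill oil-fed PD animals on day 6 against 87, 16 and 5 counts in PD controls. On day 6 the libraries of 1 PD group thus differed more than the diets did. On day 3 leaving out PD control replicate 1 moved the log2 difference of PD against wild type controls to -4.21 for clec-94 (with it -2.93), to -4.52 for clec-197 (with it -2.30) and to -2.47 for clec-137 (with it -1.87). In wild type controls these 3 genes were near 0 on day 6 and were called lower than on day 3, again with fitted values that depend on the prior count.

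The response to krill oil was also compared between ages within a strain. Taking the day 6 minus the day 1 effect, 25 of 122 members were higher and 25 lower in PD animals (42.9% of all genes called, 22.5% higher and 20.4% lower), and 16 of 137 were higher and 52 lower in wild type animals (39.5% of all genes called, 19.9% higher and 19.5% lower). The PD shares, 20.5% higher and 20.5% lower, were those of all genes, while in wild type animals the share lower, 37.96%, was above it. In PD animals clec-180 (3.60, SE 0.619, adjusted p 0.000208) and clec-170 (1.87, SE 0.257, adjusted p 2.17e-05) led the positive side. clec-170 had 3.72, 3.45 and 2.98 CPM in krill oil-fed PD animals on day 6 against 0.839, 0.900 and 0.915 CPM in controls, and on day 1 the diets overlapped. The clec-67 difference in wild type animals was -3.26 (SE 0.261, adjusted p 1.84e-07), in which a rise on day 1 was followed by 8.02, 8.81 and 7.25 CPM with krill oil against 9.19, 11.004 and 9.42 CPM in controls on day 6.

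The clec genes can be set beside a list of 122 other immune effectors, such as lysozymes, caenacins and saposin-like proteins. This list too was chosen with earlier results of these data known. Of the effectors tested with krill oil, 18 of 66 were higher and 12 lower in PD animals on day 1 (7.44% and 8.07% of all genes). On day 3, 40 of 83 were higher and 26 lower in PD animals (21.2% and 19.9% of all genes). On day 6, 31 of 87 were higher and 21 lower (24.8% and 12% of all genes). In wild type animals 16 of 75 effectors were higher and 5 lower on day 1 (4.87% and 2.49% of all genes). On day 3, 30 of 88 were higher and 27 lower (22% and 14.1% of all genes). On day 6, 34 of 90 effectors were higher and 35 lower (30.9% and 32.6% of all genes). Their median log2 fold changes on day 3 were 0.41 in PD and 0.11 in wild type animals, while those of the clec members were below 0. Their summed level was nevertheless lower with krill oil on day 3, at 3087 to 3293 CPM in krill oil-fed PD animals against 4567 to 4961 CPM in PD controls and 2118 to 2179 CPM against 3486 to 3744 CPM in wild type animals, which is also the direction of the clec sums. On day 6 in wild type animals the effectors had a median of -0.09, beside -0.52 for the clec members. The 2 lists were not tested against each other.

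Among 17 regulators of the immune response, all tested in every krill oil comparison, calls were most numerous where they were so over all genes, on day 3 in PD animals (41.2% of all genes) and on day 6 in wild type animals (63.5%). daf-16, the FOXO factor of insulin signalling, was lower with krill oil on day 1 in both strains, with a log2 fold change of -0.30 (adjusted p 0.000716) in PD and -0.16 (adjusted p 0.0315) in wild type animals. On day 3, 2 regulators were higher and 7 lower in PD animals (21.2% and 19.9% of all genes). In wild type animals on day 3, 2 were higher (tir-1 and zip-2) and 4 lower (atf-7, daf-16, fshr-1 and pqm-1), beside 22% and 14.1% of all genes. On day 6, 1 regulator was higher and 1 lower in PD animals (24.8% and 12% of all genes), and 1 was higher and 10 lower in wild type animals (30.9% and 32.6% of all genes). elt-2, the GATA factor of the intestine, was the one higher with krill oil in PD animals on day 6 (log2 fold change 0.45, SE 0.149, adjusted p 0.0398) and was among those lower in wild type animals (-0.64, SE 0.114, adjusted p 0.000299). Its response differed between the strains on day 6 by 1.07 (SE 0.187, adjusted p 0.000272).

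Over the 6 krill oil comparisons 104 members were called at least once, 36 of them in both directions. The same counts were not made over all genes, of which 7.36% to 63.5% were called in a single comparison. They are therefore not read as particular to the family. A further 32 were tested and never called, of which clec-53, clec-90, clec-104 and clec-178 were tested in all 6, and 9 members (clec-22, clec-33, clec-106, clec-107, clec-117, clec-135, clec-168, clec-194 and clec-247) had too few counts for the test in any. Of 23 members of the family with a role known from C. elegans work, clec-38, linked to axon outgrowth, and clec-39, linked to Serratia marcescens, did not meet the count rule and are not described. A call that is missing at these levels does not show that krill oil left a gene alone, since 71 members averaged under 1 CPM.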

How the data were processed

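RNA of whole worms was sequenced from 200 ng total RNA after depletion of ribosomal RNA. Alignment by the authors used STAR 2.7.10a on WBcel235, after which molecular identifiers served to remove duplicates. The deposited values are gene counts, not normalized, and the counting program and its strand setting are not given in the sources used here. Symbols and positions came from the WBcel235 annotation (Ensembl release 115), in which 46603 identifiers were found. Members and lists were chosen with earlier results of these data known. Each comparison was fitted on its own libraries with edgeR 4.0.16 (R 4.3.3): filterByExpr, TMM, quasi-likelihood test, Benjamini-Hochberg adjustment over all genes tested. The diet fits held 6 libraries, the strain fits 12 and the age fits 18. The SE is the absolute log2 fold change over the square root of F. DEGs also passed an absolute log2 fold change of 1. Named genes were the 10 highest per length, then, among DEGs averaging 1 CPM or more whose groups did not overlap (not asked of interactions), the 4 largest rises and falls of each krill oil comparison and the 3 of each other comparison, and 23 genes of known role. Alternatives were DESeq2 1.42.0, RLE factors, no low-count filter, all 36 libraries in a fit, a replicate block, removal of ribosomal RNA genes, and leaving out each library. Fits were tested on simulated counts. Figures were drawn with matplotlib 3.10.9. No sequence is shown.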

Additional observations from a re-analysis of the deposited data

Results flagged for a closer look

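The test of the difference between the strains picked out 11 named responses to krill oil, each given as the log2 effect in PD minus that in wild type animals (edgeR interaction term). On day 1 this was clec-67 (-1.41, adjusted p 0.0438). On day 3 these were clec-5 (1.26), clec-218 (1.03), clec-230 (-1.99, SE 0.369, adjusted p 0.00484) and clec-78 (-1.05, SE 0.168, adjusted p 0.00201). On day 6 these were clec-230 (4.20), clec-42 (3.83), clec-78 (3.63), clec-190 (-2.04), clec-142 (-1.83) and clec-52 (-1.32). clec-230 and clec-78 thus changed sign between day 3 and day 6 in this difference. Without wild type krill oil day 6 replicate 3 the clec-42 difference was 4.56.

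The test of the difference between day 6 and day 1 picked out 12 more, each as the day 6 minus the day 1 effect. In PD animals these were clec-180 (3.60), clec-170 (1.87), clec-72 (1.50, adjusted p 0.0494), clec-210 (-2.77, SE 0.514, adjusted p 0.00041), clec-71 (-2.50) and clec-52 (-1.86, SE 0.257, adjusted p 2.32e-05). The clec-72 call was lost in 14 of the 18 fits that left out a library (adjusted p up to 0.126), with values between 1.09 without PD krill oil day 6 replicate 1 and 2.10 without PD control day 6 replicate 3. The clec-71 value was -3.18 without PD control day 1 replicate 3. In wild type animals these were clec-73 (3.92, SE 0.688, adjusted p 0.000331), clec-142 (1.58, SE 0.413, adjusted p 0.00616), clec-190 (1.04, SE 0.231, adjusted p 0.00217), clec-60 (-7.19, adjusted p 1.21e-06), clec-71 (-4.45) and clec-67 (-3.26). The size of the clec-60 value depends on the prior count, since its day 1 controls had 0, 0 and 2 counts, and it was -9.72 without wild type control day 1 replicate 3.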

How the results depend on the processing

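Of 108 counts of called members under 6 other settings, 107 stayed within 1.5 times. The exception was the strain difference on day 1, with 7 members called when only genes at 0 were removed, against 3. The named members kept their side of the threshold in 594 of 600 such fits and were lost in 6: clec-67 (strain difference, day 1) with the replicate block (adjusted p 0.120), clec-78 (strain difference, day 3) with all 36 libraries in 1 fit (0.168), and clec-72 (PD age difference) by DESeq2 (0.0674), RLE factors (0.0518), the block (0.0517) and all 36 libraries (0.0671). None of these reversed. The count rule gave 156 members with 10 counts in 1 library and 77 with 50 counts in 3.

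Same-numbered libraries correlated at -0.0705 to 0.3555 over 12320 genes, with 3 of 18 pairs over 0.1 and 4 of 18 krill oil libraries correlating best with their own number, so the numbers were not taken to pair samples. With the replicate block the krill oil counts were 32, 58 and 50 in PD and 18, 47 and 88 in wild type animals at days 1, 3 and 6.

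Leaving out each library gave 21 to 30, 52 to 57 and 32 to 51 members in PD animals and 13 to 30, 45 to 50 and 75 to 87 in wild type animals at days 1, 3 and 6. The age counts ran from 56 to 69 (PD, day 3 against day 1), 59 to 70 (PD, day 6 against day 3), 39 to 60 and 86 to 100 (wild type). PD against wild type controls gave 23 to 33, 46 to 58 and 81 to 93. The strain difference in response gave 0 to 3, 11 to 18 and 70 to 77, and the age difference 46 to 53 in PD and 58 to 71 in wild type animals. Named members were lost in 30 of 1122 such fits, 14 for clec-72 and 11 for clec-67 above, 4 for clec-60 and 1 for clec-184, and none reversed. With 3 libraries a group and 71 members under 1 CPM, a missing call does not show that a scarce member was unchanged.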
